A study of Mus musculus with 12 samples.

Results

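The NR4A orphan nuclear receptors and the EGR zinc finger factors were described through 6 genes, Nr4a1, Nr4a2, Nr4a3, Egr1, Egr2 and Egr3, out of 55228 genes in the table of TPM. The 6 genes were chosen by name and on their TPM in these same libraries, which were already known, so their levels are given as a description, with no test. The series holds 12 RNA-seq libraries of cultured mouse regulatory T cells (Tregs), in 4 groups of 3. EV Tregs carried the empty MSCV retroviral vector, whose reporter is the surface protein Thy1.1, and were either rested with no cytokine (EV no IL-2) or kept in medium with IL-2 (EV+IL-2). In the remaining groups, 1G12t and 3A10t, Tregs carried that vector with the orthogonal IL-2 variant 1G12 or 3A10 tethered to the orthoIL-2Rβ chain, and both were rested without IL-2. All groups came from 1 pool of lymph node cells of 16 NOD.Foxp3-GFP mice. The methods give an age range for Treg donors of the NOD.Thy1.1 and NOD.Thy1.2 strains and none for NOD.Foxp3-GFP mice. The pool was divided in 3, GFP+CD25+ cells of each division were purified on a different sorter, and each was activated in its own culture with beads against CD3 and CD28. Constructs were added on day 2, IL-2 was washed away on day 4 except in EV+IL-2, and on day 9 the cells with Thy1.1 were purified. The 3 libraries of a group were thus separate cultures of 1 pool of cells and not separate animals, and a replicate number marks a shared sort.

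NR4A and EGR factors are immediate-early genes. In T cells they are induced within minutes to hours of antigen receptor signaling. The inputs include the ERK pathway with serum response factor, and calcium with NFAT, MEF2 and CREB. NR4A receptors act without a known endogenous ligand, are best known in T cells for exhaustion and tolerance, and in Tregs bind regulatory elements of Foxp3. Egr1 is a broad early activator, whereas Egr2 and Egr3 are known for genes that restrain T cell activation, such as Cblb and Dgka, and are held back by the corepressors Nab1 and Nab2. IL-2 signals through STAT5, AKT and ERK and is not the classical inducer of either family.

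Promoter windows of the RefSeq table, of 250 bases before and 50 after a transcript start, are described for 4 of the 6 genes. Egr1 was left out of the search, and no window was at hand for Egr3. The upstream bases free of annotated exons are printed to show where the matches lie. Coordinates are on GRCm38.p6, sequences run 5′ to 3′ on the strand of the gene, and capitals mark every match on either strand to TGCGTCA, to its shorter core TGACG, to a CArG box or to GCGNGGGCG. The Nr4a1 bases are chr15:101266596-101266845 on the plus strand, in an intron of the longer annotated gene. The Nr4a2 bases, on the minus strand, are chr2:57124004-57124253 and lie directly upstream of the gene. The Nr4a3 bases, chr4:48045055-48045152 on the plus strand, also lie directly upstream. Egr2 has 5 windows, and the one shown, chr10:67537619-67537868 on the plus strand, is intronic in the longer annotated gene and was chosen after the matches were seen, as the first of the 3 that held both a CArG box and TGACG.
Nr4a1: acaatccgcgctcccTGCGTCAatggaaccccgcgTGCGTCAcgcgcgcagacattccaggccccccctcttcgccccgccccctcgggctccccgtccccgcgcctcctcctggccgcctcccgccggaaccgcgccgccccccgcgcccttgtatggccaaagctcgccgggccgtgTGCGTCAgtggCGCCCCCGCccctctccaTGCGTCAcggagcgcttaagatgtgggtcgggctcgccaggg
Nr4a2: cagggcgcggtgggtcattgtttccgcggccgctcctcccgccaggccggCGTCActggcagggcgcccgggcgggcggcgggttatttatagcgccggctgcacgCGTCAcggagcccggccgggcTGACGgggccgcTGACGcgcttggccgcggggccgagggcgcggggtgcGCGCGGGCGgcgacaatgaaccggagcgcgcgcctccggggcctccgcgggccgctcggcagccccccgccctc
Nr4a3: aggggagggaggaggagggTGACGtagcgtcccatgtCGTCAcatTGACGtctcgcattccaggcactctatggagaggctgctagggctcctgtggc
Egr2: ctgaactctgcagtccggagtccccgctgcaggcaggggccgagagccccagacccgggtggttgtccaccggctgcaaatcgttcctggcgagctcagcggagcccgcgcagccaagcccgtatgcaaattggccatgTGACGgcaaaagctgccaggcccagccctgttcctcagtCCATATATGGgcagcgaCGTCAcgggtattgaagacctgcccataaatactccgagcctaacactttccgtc

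The Nr4a1 window held TGCGTCA, a variant of the cAMP response element (CRE) to which CREB binds, at 4 places, and 2.12% of the 32851 windows of the table held it at all. TGACG, the core of a CRE, was found 4 times in the windows of Nr4a1, Nr4a2 and Nr4a3 and 2 times in that of Egr2, against 20.8% of windows with at least 1 match. The 4 matches in Nr4a1 lie within its TGCGTCA matches. A CArG box, the site of serum response factor, was in the printed Egr2 window and in none of the NR4A windows, and 1.63% of all windows held one. Of the 5 Egr2 windows, 4 held a CArG box and 3 held TGACG, and the window at the start of the longer annotated gene (chr10:67535249-67535548) held neither. GCGNGGGCG, the EGR site, was present once in the windows of Nr4a1 and Nr4a2 and in 5.55% of all windows. The full CRE, TGACGTCA, and the NR4A site, AAAGGTCA, were in none of the 4 windows and in 1.79% and 1.51% of all windows. The ETS core GGAA, found in 96.0% of windows, was in all 4. These motifs were chosen after the sequences were seen, and a match is a run of letters, not a measured binding site.

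**Figure D1:**
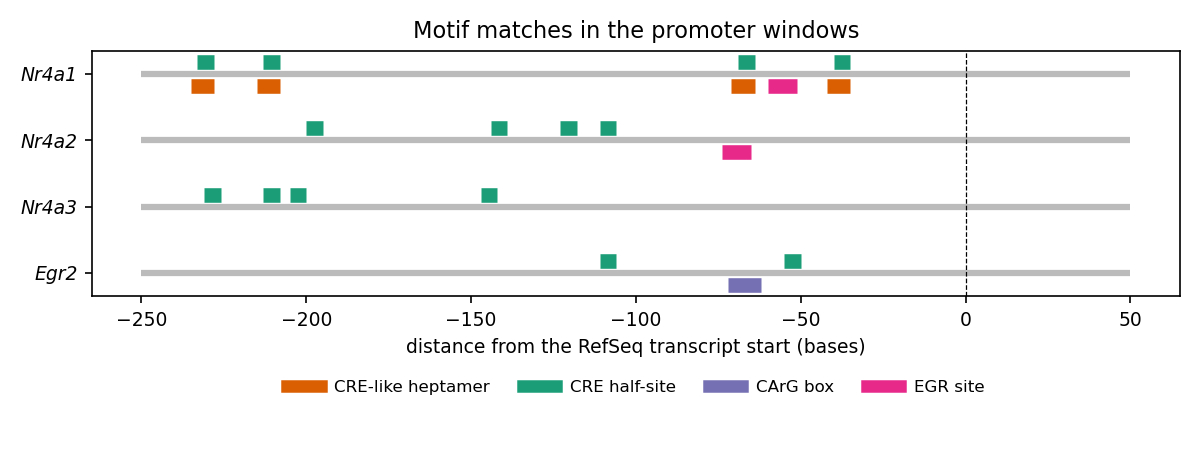
Motif matches in the promoter windows of Nr4a1, Nr4a2, Nr4a3 and Egr2, by distance in bases from the RefSeq transcript start (dashed line), where grey bars are the 300-base windows and coloured boxes are matches on either strand. The 4 CRE-like heptamers (TGCGTCA) are in Nr4a1 and the CArG box is in Egr2.

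Levels are TPM as deposited, divided by 1 median-of-ratios factor per library and called scaled TPM. TPM are counted per length of transcript, so that levels of different genes can be set side by side, but they keep no depth and give no counting error. The factors lay between 0.846 and 1.08. Differences between groups are given on the scale of log2(scaled TPM + 1), which understates the change of genes at low TPM, with the standard error (SE) of a limma fit to all 12 libraries. The fit took genes whose TPM averaged 1 or more, 15043 in all. Of the 6 genes, 5 passed this filter and Egr3, with a mean of 0.580 TPM, did not, so that its differences have no SE. All 6 genes were above 0 in all 12 libraries.

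The labelled cell type and constructs were checked first. Foxp3 was between 373 and 515 scaled TPM in every library and all 6 markers of Tregs and CD4 T cells were present. Il2, carried by the tethers, was at 13.1 to 25.1 in 1G12t and 18.5 to 30.0 in 3A10t Tregs, against 0.183 to 0.496 in EV Tregs. Il2rb, whose ortho form is part of the tether, was at 252 to 291 in EV no IL-2, 433 to 476 in EV+IL-2, 351 to 415 in 3A10t and 367 to 435 in 1G12t. Thy1 was at 184 to 264 in the tethered and 3141 to 3511 in the EV libraries, and vector and endogenous RNA cannot be told apart in gene-level TPM. Among markers of other cells, Cd79a did not exceed 2.25 and Cd8a 0.780. Cd79b was higher, at 6.82 to 13.4, as was Cd8b1, at 3.14 to 5.79. Ms4a1, S100a8 and S100a9, picked after their values were seen, had higher means in both tethers than in both EV groups. So did Cd79a, Csf1r and Cd8a, while Cd79b, Lyz2, Cst3 and Cd8b1 did not. Cd79b averaged 10.3 in EV+IL-2, 7.96 in EV no IL-2 and 8.40 in 1G12t, and Lyz2 averaged 0.198 in EV no IL-2 and 0.187 in 1G12t. Of all genes with a mean TPM from 0.1 to under 1, 23.2% had all 1G12t libraries above those of EV no IL-2. The B cell gene Ms4a1 was at 0 to 0.0696 in EV+IL-2, 0.118 to 0.253 in EV no IL-2, 0.363 to 0.556 in 3A10t and 0.379 to 0.675 in 1G12t. The neutrophil gene S100a8 was at 0 in 5 of the 6 EV libraries and at 0.109 in the other, against 0.213 to 0.598 in 3A10t and 0.416 to 0.878 in 1G12t. S100a9 was at 0 to 0.204 in the EV libraries, 0 to 0.829 in 3A10t and 0.535 to 0.974 in 1G12t. Ms4a1, S100a8 and S100a9 were below 1 TPM in every library and Csf1r did not exceed 1.75. Their part in the levels of the 6 genes was not tested. The summed B cell list (Cd79a, Cd79b, Ms4a1) was 10.3 to 12.9 in EV+IL-2, 8.42 to 10.1 in EV no IL-2, 11.4 to 16.2 in 3A10t and 8.78 to 13.0 in 1G12t. The myeloid sum of 446 to 772 was nearly all Cst3, which T cells also express, with Lyz2 at most 0.485. The number of genes above 1 TPM was also ordered by group, with 13099 to 13827 in EV+IL-2, 13613 to 14710 in EV no IL-2, 15200 to 15896 in 3A10t and 16204 to 16981 in 1G12t, so that only the EV groups overlapped. The share of all TPM held by the top 10 genes set 3A10t apart, at 10.8% to 13.5% against 8.85% to 9.92% in the other groups. In bulk RNA, fewer cells that express a gene and less RNA per cell cannot be told apart.

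Nr4a1, which encodes Nur77 and is the usual reporter of antigen receptor signaling, was the most abundant of the 6 genes, with a mean of 16.7 TPM over all libraries (chromosome 15, 101254269 to 101274795, GRCm38). It was at 5.38, 6.30 and 5.35 scaled TPM in EV+IL-2 and at 11.9, 10.4 and 14.0 in EV no IL-2, 19.9, 18.4 and 21.5 in 3A10t and 22.5, 21.8 and 41.0 in 1G12t. No library of one group overlapped another group, in the order EV+IL-2, EV no IL-2, 3A10t and 1G12t. The order was read off Nr4a1 itself. With all 4 groups apart it was met by 6 of the 15043 genes tested (0.0399%), Nr4a1 among them, so nothing is read from this share. The number of genes above 1 TPM had the same order of group means, and its part in the levels of Nr4a1 was not tested. Mean levels were 5.68 ± 0.538 in EV+IL-2, 12.1 ± 1.80 in EV no IL-2, 19.9 ± 1.54 in 3A10t and 28.4 ± 10.9 in 1G12t (SD, n = 3). Against EV no IL-2, the mean was 0.470 times as high in EV+IL-2 and, for 3A10t and 1G12t, 1.65 and 2.35 times, and 3A10t exceeded EV+IL-2 by 3.51 times. The log2 differences from EV no IL-2 were −0.96 for EV+IL-2, 0.69 for 3A10t and 1.12 for 1G12t, each with an SE of 0.21.

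Nr4a2 (Nurr1; chromosome 2, 57106830 to 57124003) was scarce, with a mean of 1.52 TPM. Its scaled TPM were 0.916, 1.52 and 0.825 in EV+IL-2, 2.24, 0.935 and 0.797 in EV no IL-2, 2.22, 1.47 and 1.41 in 3A10t and 1.34, 1.23 and 3.29 in 1G12t. Every group overlapped every other. The log2 difference from EV no IL-2 was −0.12 in EV+IL-2 and, for 3A10t and 1G12t, 0.25 and 0.33, with an SE of 0.31. The last of these was 0.027 without 1G12t replicate 3, and the first was 0.15 without EV no IL-2 replicate 1 and 0.019 with quantile normalization.

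Nr4a3 (Nor1; chromosome 4, 48045153 to 48086447) had a mean of 1.82 TPM. It was at 0.488, 0.929 and 0.686 scaled TPM in EV+IL-2, 0.735, 1.26 and 1.67 in EV no IL-2, 1.53, 3.25 and 3.29 in 3A10t and 1.41, 2.32 and 4.31 in 1G12t. All 6 tethered libraries were above all 3 of EV+IL-2, while both tethers overlapped EV no IL-2 by their lowest library. The means of 3A10t and 1G12t were alike, 2.69 ± 1.00 and 2.68 ± 1.48 (SD, n = 3), which is 2.20 and 2.19 times that of EV no IL-2 (1.22 ± 0.469). The log2 differences from EV no IL-2 were 0.71 and 0.67 (SE 0.31). The EV+IL-2 mean was 0.574 times that of EV no IL-2, with a log2 difference of −0.37 (SE 0.31).

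Egr2, a restraining member of the EGR family, had the largest difference between the EV groups. It was at 1.04, 1.23 and 0.745 scaled TPM in EV+IL-2, 4.49, 4.84 and 6.11 in EV no IL-2, 8.68, 6.52 and 5.96 in 3A10t and 8.81, 9.84 and 12.2 in 1G12t. The EV+IL-2 and 1G12t libraries were each apart from every other group, while EV no IL-2 replicate 3 exceeded 3A10t replicate 3. The EV no IL-2 mean of 5.15 ± 0.852 was 5.13 times the EV+IL-2 mean of 1.00 ± 0.243, a log2 difference of −1.61 for EV+IL-2 (SE 0.17). The 1G12t mean, 10.3 ± 1.75, was 2.00 times that of EV no IL-2 and 10.2 times that of EV+IL-2. The 3A10t mean, 7.05 ± 1.44, was 1.37 times that of EV no IL-2 and 7.03 times that of EV+IL-2. The log2 differences from EV no IL-2 were 0.88 in 1G12t and 0.38 in 3A10t (SE 0.17). Egr2 lies on chromosome 10 from 67535475 to 67542188 in GRCm38.

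Egr3, which overlaps Egr2 in function (chromosome 14, 70077203 to 70082614), was the least abundant of the 6. It was at 0.142, 0.124 and 0.417 scaled TPM in EV+IL-2, 0.228, 0.295 and 0.460 in EV no IL-2, 0.655, 0.662 and 0.514 in 3A10t and 0.849, 0.770 and 1.72 in 1G12t. Both tethers were above both EV groups in every library, and 1G12t was above 3A10t, whereas the EV groups overlapped. The means were 0.228 ± 0.164 in EV+IL-2, 0.328 ± 0.119 in EV no IL-2, 0.610 ± 0.0834 in 3A10t and 1.11 ± 0.527 in 1G12t. Of 27050 genes with a mean TPM from 0.1 to under 1, 23.2% also had all 1G12t libraries above those of EV no IL-2. With quantile normalization the log2 difference of 3A10t from EV+IL-2 turned from 0.40 to −0.098, so its direction rests on the scaling. That of EV+IL-2 from EV no IL-2 turned from −0.12 to 0.16.

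Egr1, the early activator of the family, was the second most abundant, with a mean of 9.88 TPM. It was at 10.0, 4.24 and 3.33 scaled TPM in EV+IL-2, 5.69, 6.63 and 9.84 in EV no IL-2, 11.2, 12.3 and 12.2 in 3A10t and 10.5, 10.7 and 21.1 in 1G12t. The tethered libraries were above all EV libraries, and 1G12t and 3A10t overlapped. EV+IL-2 held both the lowest and, in replicate 1, the highest EV library, so the EV groups overlapped. Mean levels were 5.87 ± 3.64 in EV+IL-2, 7.39 ± 2.18 in EV no IL-2, 11.9 ± 0.648 in 3A10t and 14.1 ± 6.08 in 1G12t (SD, n = 3). The log2 differences from EV no IL-2 were −0.38 in EV+IL-2 and, for 3A10t and 1G12t, 0.65 and 0.81 (SE 0.35). Without EV+IL-2 replicate 1 the first was −0.78.

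**Figure D2:**
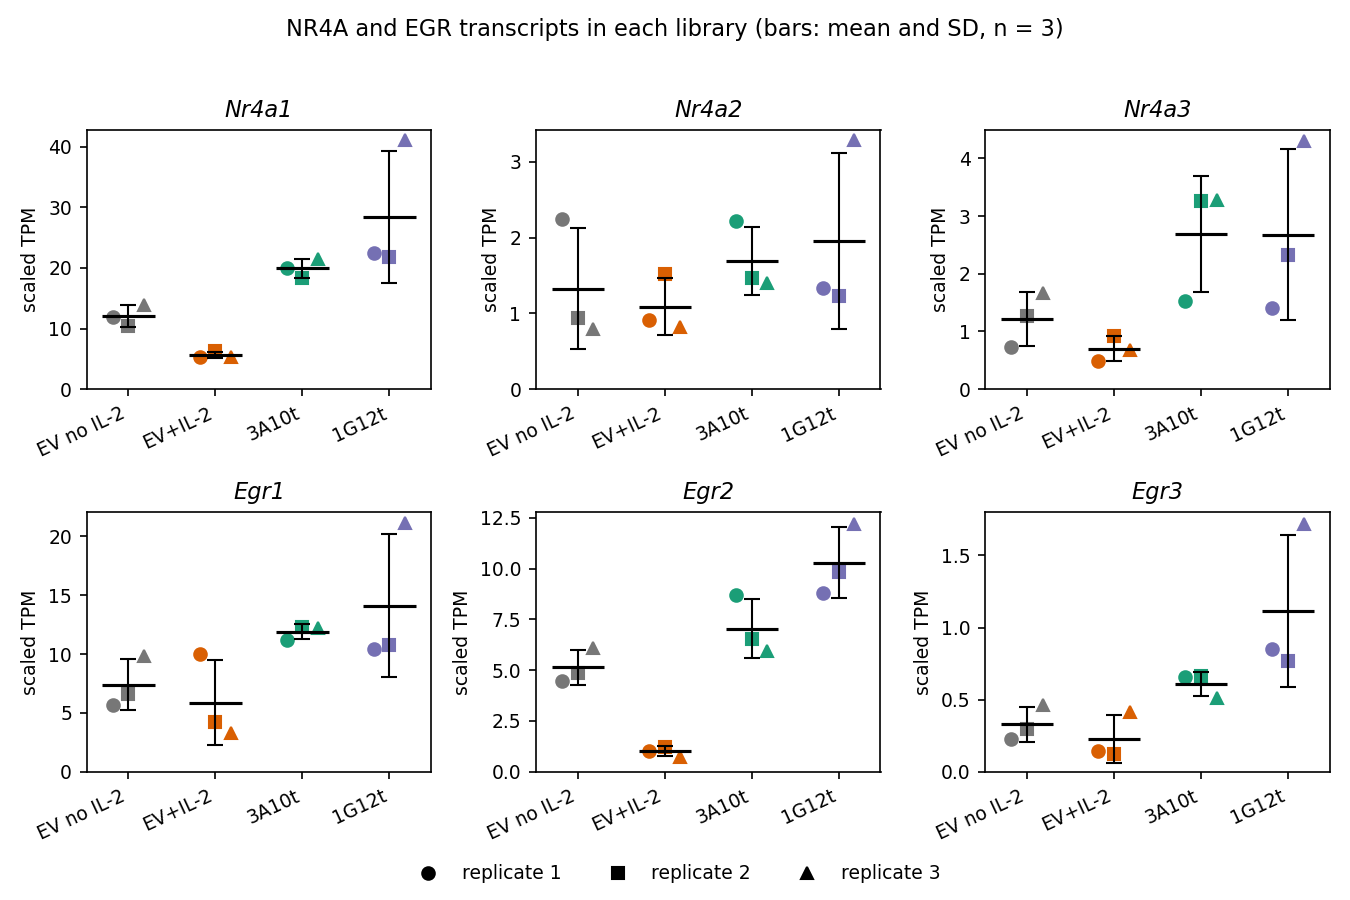
Scaled TPM of each gene in each library, with symbols for the replicate number and bars for the mean and SD of 3 libraries, on a linear axis that starts at 0. Nr4a1 and Egr2 were lowest in all EV+IL-2 libraries, and the 1G12t replicate 3 triangle is the highest point of all 6 panels.

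Cells kept in IL-2 had less Nr4a1 and Egr2 RNA. All 3 of their libraries lay fully under EV no IL-2 for 2 of the 6 genes, Nr4a1 and Egr2, and above for 0, while 20.0% of all genes tested lay fully below. The median log2 difference of the 5 genes in the fit was −0.38, against −0.014 over all genes. For the tethers, whose comparisons share the EV no IL-2 libraries, values are set side by side. In 3A10t, 3 of 6 genes (Nr4a1, Egr1 and Egr3) lay fully above EV no IL-2, beside 13.3% of all genes, with a median difference of 0.65 against 0.026. In 1G12t, 4 of 6 (Nr4a1, Egr1, Egr2 and Egr3) did, beside 8.68%, with a median of 0.81 against −0.0038. The 3A10t count was 1 with TPM as deposited (Nr4a1) and 5 without EV no IL-2 replicate 3, when Nr4a3 and Egr2 joined. Since the genes were chosen on these levels, nothing is read from these counts.

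By the median of these genes, 3A10t lay farther from EV+IL-2 than from EV no IL-2. All 3 libraries of 3A10t were above those of EV+IL-2 for 5 of 6 genes, all but Nr4a2, beside 18.9% of all genes tested, and the median log2 difference was 1.08 against 0 over all genes. The largest were those of Egr2, 2.00 (SE 0.17), and Nr4a1, 1.65 (SE 0.21), followed by Nr4a3, 1.08 (SE 0.31), and Egr1, 1.03 (SE 0.35). Nr4a2 was at 0.37 (SE 0.31). Between the tethers, 3A10t lay fully below 1G12t for 3 of 6 genes (Nr4a1, Egr2 and Egr3), beside 12.5% of all genes, with log2 differences of −0.43 (SE 0.21) for Nr4a1, −0.49 (SE 0.17) for Egr2 and −0.36 for Egr3. Those of Nr4a2, Nr4a3 and Egr1 were −0.077, 0.040 and −0.16, and their signs turned with single libraries and with the scaling or length correction. Without 1G12t replicate 3 those of Nr4a2 and Egr1 were 0.23 and 0.16, and without 1G12t replicate 1 that of Nr4a3 was −0.23.

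**Figure D3:**
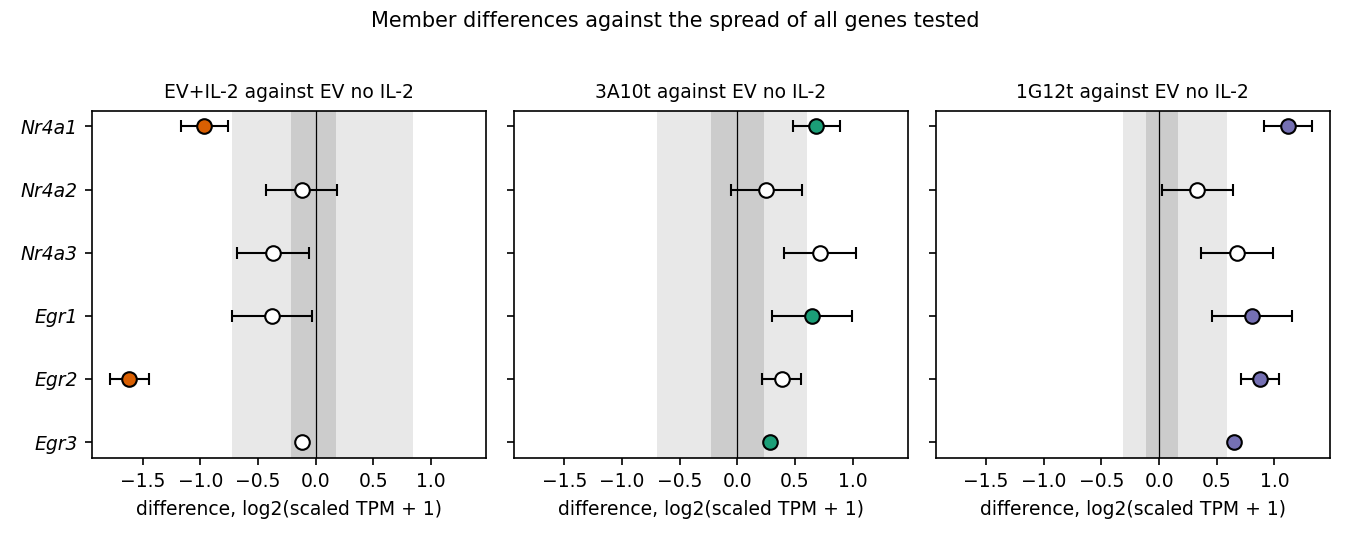
Differences from EV no IL-2 in log2(scaled TPM + 1) for EV+IL-2, 3A10t and 1G12t, with bars for the SE of the limma fit (none for Egr3, which was not in the fit). Filled points have all 3 libraries outside those of EV no IL-2, and dark and light grey bands hold the middle 50% and 90% of all 15043 genes tested. Nr4a1 (−0.96) and Egr2 (−1.61) lie below the light band in EV+IL-2.

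A single library carried much of the 1G12t level. Replicate 3 of 1G12t was the highest of the 12 libraries for 6 of 6 genes, and 15.7% of all genes tested were highest there. It exceeded the mean of the other two 1G12t libraries by 1.86 times for Nr4a1, 1.99 for Egr1, 2.12 for Egr3, 2.31 for Nr4a3 and 2.56 for Nr4a2, but by 1.31 for Egr2. Among EV no IL-2 libraries replicate 3, from the same sort, was also the highest for every gene but Nr4a2, and in EV+IL-2 it was the lowest for Nr4a1, Nr4a2, Egr1 and Egr2.
The early response list holds AP-1, IER, DUSP and KLF genes and others such as Cd69, Cd5, Irf4 and Myc. It was in part high in that library. Of its 25 tested genes, 12 were highest there, beside 15.7% of all genes tested. Against the mean of replicates 1 and 2, replicate 3 was higher for 21 and lower for 4, with a median ratio of 1.47. This ratio was not taken over all genes, so nothing particular to the list is read from it. The 4 lower genes were Ier3 (0.528 times), Bhlhe40 (0.572), Myc (0.657) and Rgs1 (0.720). Fos, the AP-1 subunit, was at 400.0 against a mean of 29.0 in replicates 1 and 2, Fosb was 10.7 times and Jun 3.30 times as high (these 7 were picked after their values were seen). Its part in the levels of the NR4A and EGR genes was not tested.
Without replicate 3, the 1G12t mean of Nr4a1 was 22.1, 1.83 times that of EV no IL-2 and 1.11 times that of 3A10t, still above every library of both. Egr2, at 9.33, was 1.81 and 1.32 times as high and also above every library of both groups. Egr3, at 0.809, was 2.47 and 1.33 times as high. Egr1, at 10.6, was 1.44 times the EV no IL-2 mean but 0.891 times that of 3A10t, and Nr4a2 (0.758 times) and Nr4a3 (0.693 times) were below the 3A10t mean as well. The number of genes fully apart between the tethers became 5, with Nr4a2 and Egr1 lower in 1G12t. The groups are then unequal in size and no share of all genes was taken for this count, so nothing is read from it.

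**Figure D4:**
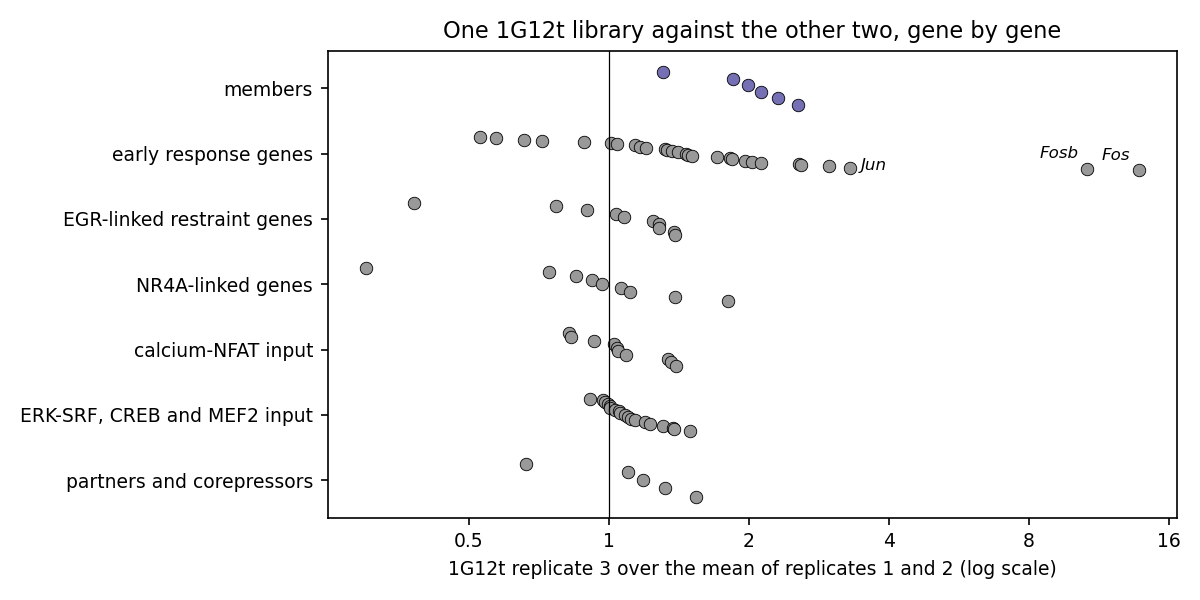
Scaled TPM of 1G12t replicate 3 over the mean of 1G12t replicates 1 and 2, 1 point per listed gene, on a log2-spaced axis where 1 is no difference. The 6 NR4A and EGR genes lie at 1.31 to 2.56, and Fos (13.8) and Fosb (10.7) lie farthest right among the early response genes.

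The 6 genes did not share 1 profile by a measure that takes in the size of the change. The added 1 shrinks that size for genes near or under 1 TPM, so a large value need not mean another order of libraries. Egr2 and Egr3, for example, differed by 0.726, although the 1G12t libraries were the highest for both. After each gene was centred on its own mean of log2(scaled TPM + 1), the root mean square (RMS) difference over the 12 libraries was smallest for Nr4a1 and Egr2, 0.298, and largest for Nr4a2 and Egr2, 0.827. For the 4 genes whose group means spanned at least 1, the nearest 3 of 10039 genes averaging 5 TPM or more were listed by the same measure. Egr2, whose own RMS about its mean was 0.950, was nearest to Rgs16 (0.287), Cxcr6 (0.310) and Rgs2 (0.341), a chemokine receptor and a pair of regulators of G protein signaling. Rgs16 was at 3.50 ± 0.363 scaled TPM in EV+IL-2, 18.1 ± 2.78 in EV no IL-2, 18.7 ± 5.27 in 3A10t and 25.6 ± 5.80 in 1G12t. Cxcr6 was at 4.43 ± 0.326, 15.9 ± 0.233, 16.2 ± 0.994 and 21.1 ± 3.85 in the same groups. For Rgs16 and Cxcr6 the EV no IL-2 and 3A10t libraries overlapped.
Nr4a1 was nearest to Bcl2a1d (0.327), Penk (0.329) and Mtss1 (0.338), against its own RMS of 0.819. Bcl2a1d, of the BCL2 family, has near-identical copies among which reads may be split. Penk, the proenkephalin gene, was at 5.57 ± 1.96 in EV+IL-2, 14.7 ± 2.43 in EV no IL-2, 21.2 ± 0.754 in 3A10t and 21.3 ± 6.28 in 1G12t. Egr1 (own RMS 0.623) was nearest to Phactr2 (0.330), B630019A10Rik (0.364) and Ramp3 (0.365). Nr4a3 (own RMS 0.565) was nearest to 5830428M24Rik (0.213), Airn (0.227) and 2010016I18Rik (0.227). The points are 12 libraries of 4 groups, and no more is read from the distances than likeness over them.

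The genes upstream and downstream of both families were taken from 6 lists with 82 genes, of which 76 were tested with limma across all genes. In EV+IL-2 against EV no IL-2, 12 of the 76 rose and 9 fell at an adjusted p under 0.05, where 8.17% of all genes rose and 5.14% fell. The list of genes linked to NR4A factors in T cells holds Foxp3, Ikzf2, Il2ra, Tox, Tox2 and the inhibitory receptors Ctla4, Pdcd1, Havcr2 and Tigit. Of these receptors, Ctla4 (−0.21, adjusted p = 0.27, limma) and Havcr2 (−0.11, adjusted p = 0.86, limma) were not called. Pdcd1, which encodes PD-1, fell from 57.0 ± 2.78 to 28.9 ± 3.22 scaled TPM (log2 difference −0.96, adjusted p = 5.1e-05, limma). Tigit fell from 29.4 ± 3.20 to 17.6 ± 2.47 (−0.71, adjusted p = 0.0039, limma). Il2ra, which encodes the IL-2 receptor chain CD25, rose from 416 ± 19.4 to 706 ± 41.3 (0.76, adjusted p = 0.0012, limma), so that 1 of the 8 tested genes of this list rose and 2 fell.
In the list of EGR-linked restraint genes, 3 of 10 rose and 2 fell. Lag3, an inhibitory receptor, fell from 13.5 ± 1.70 to 4.07 ± 1.14 (−1.54, adjusted p = 0.0068, limma), and Dgka, which removes diacylglycerol and so dampens ERK signaling, fell by 0.62 on the log2 scale. Tnfrsf9, the costimulatory receptor 4-1BB, rose by 0.94, the stress gene Ndrg1 by 0.68 and the neuritin gene Nrn1 by 0.43. The list therefore did not move 1 way, and its median was −0.13. Nrn1 lost its call in 7 of 24 alternatives.

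Among the early response genes 6 of 25 rose and 3 fell in EV+IL-2, in a direction unlike that of Nr4a1 and Egr2 for the larger changes. Dusp1, a phosphatase that switches off MAP kinases, rose from 174 ± 8.59 to 511 ± 59.7 (1.54, adjusted p = 0.0064, limma). Cd69, an activation marker, rose from 68.4 ± 2.73 to 167 ± 18.8 (1.27, adjusted p = 0.0061, limma). Myc rose by 0.79, Ier2 by 0.62 and Zfp36, which destabilizes cytokine mRNA, by 0.62, and the last 2 were called in 17 and 9 of 24 alternatives and not with the replicate number as a block (adjusted p = 0.056 and 0.059, limma). Fos, chosen after its values were seen, went from 19.3 ± 5.07 to 82.6 ± 20.6 (2.04, adjusted p = 0.13, limma). Zfp36l1 fell by 0.62 and was called in 15 of 24, while Btg2 fell by 0.56 and Cd5, which tracks antigen receptor signal strength, by 0.36.
Of the input genes, Rcan3, a regulator of calcineurin, rose by 0.65 and was the 1 call among 10 genes of the calcium and NFAT list. In the list of ERK, SRF, CREB and MEF2 genes, 1 of 19 rose and 2 fell. Crem, a CREB family gene, rose from 140 ± 4.35 to 282 ± 7.76 (1.00, adjusted p = 1.9e-05, limma). The ETS factor Elk3 fell by 0.62, and Mrtfa, a cofactor of SRF, fell by 0.33 and was called in 16 of 24 alternatives. The partners and corepressors gave 0 calls, with 1 of 4 at an unadjusted p under 0.05, a cut for which no share of all genes was taken. The replicate block added calls for the NFAT gene Nfatc2 (0.53, blocked adjusted p = 0.018, limma) and for Ikzf2 (0.62, blocked adjusted p = 0.023, limma).

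Against EV no IL-2, few listed genes were called in the tethered cells, and few of all genes tested were. In 3A10t 0 of 76 rose and 1 fell, Crtc2, a CREB coactivator (103 ± 5.18 to 74.5 ± 10.6, log2 difference −0.48, adjusted p = 0.044, limma), where 0.452% of all genes rose and 1.60% fell, and 20 reached an unadjusted p under 0.05. The count of calls was 14 without 3A10t replicate 1 and at most 1 without any other library, and 3 with the replicate number as a block. Crtc2 was called in 8 of 24 alternatives and not under the block (adjusted p = 0.055, limma), where the 3 calls were Srf, Nab1 and the diacylglycerol kinase gene Dgkz, with log2 differences of −1.17, −0.71 and −1.04. In 1G12t, limma called 0 of 76 in either direction, beside 0.0133% of all genes that rose and 0.00665% that fell, and 12 reached an unadjusted p under 0.05. The share of all genes at an unadjusted p under 0.05 was not taken, so nothing is read from the 20 in 3A10t and the 12 in 1G12t. Nab2, the corepressor of EGR factors and itself an EGR target, was at 18.3 ± 0.983 in EV+IL-2, 20.4 ± 1.74 in EV no IL-2, 23.6 ± 1.45 in 3A10t and 27.0 ± 2.74 in 1G12t. All 3 libraries of each tether were above EV no IL-2 for Nab2, with adjusted p = 0.20 in 3A10t and 0.68 in 1G12t (limma). Nab1 was at 13.2 ± 5.22 in EV+IL-2, 14.5 ± 2.01 in EV no IL-2, 8.79 ± 3.16 in 3A10t and 14.0 ± 4.45 in 1G12t, and for 3A10t against EV no IL-2 its adjusted p was 0.21 and, with the block, 0.0445 (limma). Rxra and Rxrb, the heterodimer partners of Nr4a1 and Nr4a2, were at 3.48 ± 0.464 and 54.6 ± 3.24 in EV no IL-2, and Egr4 was at 0.176 ± 0.0812 and was not tested.

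Between the tethers, 0 of the 76 listed genes rose and 5 fell in 3A10t against 1G12t, beside 1.30% and 2.96% of all genes. They were Srf (10.9 ± 1.36 in 1G12t and 4.06 ± 1.55 in 3A10t, log2 difference −1.28, adjusted p = 0.040, limma), Tnfaip3, Cblb, Elk3 and Cabin1. Srf binds the CArG box and is known to drive EGR genes, Tnfaip3 restrains NF-κB, Cblb is an EGR-linked ubiquitin ligase and Cabin1 binds calcineurin and MEF2. Their log2 differences were −1.06 for Tnfaip3, −0.74 for Cblb, −0.42 for Elk3 and −0.37 for Cabin1. The count was 21 without 3A10t replicate 1, from 0 to 2 without any other single library and 10 with the replicate block, so it rests on single libraries. The block added Nab1, Dgkz, Ppp3cb, Nfatc3 and Elk4.

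Against EV+IL-2, 8 of the 76 listed genes rose and 16 fell in 3A10t, where 10.3% of all genes rose and 13.0% fell. Lag3 rose from 4.07 ± 1.14 to 20.2 ± 1.49 (2.09, adjusted p = 0.0010, limma), Pdcd1 from 28.9 ± 3.22 to 69.2 ± 1.19 (1.24, adjusted p = 1.5e-05, limma) and Tigit from 17.6 ± 2.47 to 40.6 ± 5.58 (1.16, adjusted p = 0.00017, limma). Zfp36l1 rose by 0.98, Fasl, the death ligand and an EGR target, by 0.50, and Btg2, Nab2 and Cd5 by 0.38, 0.35 and 0.22. The early response list gave 7 of the lower calls, led by Dusp1 (−1.19), Dusp5 (−0.83), Cd69 (−0.76), Ier3 (−0.75) and Klf10 (−0.75). The other lower calls were Srf (−1.15), Crem (−0.79) and Mef2a (−0.36) of the ERK list, Ppp3cc (−0.70) and Rcan3 (−0.44) of the calcium list, Il2ra (−0.88) and Foxp3 (−0.31) of the NR4A-linked list, Ndrg1 (−0.76) and Rxrb (−0.47).
Of these calls, Lag3, Pdcd1, Tigit, Zfp36l1, Crem, Il2ra, Myc and Ndrg1 were made under all 24 alternatives. The count of calls was 10 without EV+IL-2 replicate 1, 15 without EV+IL-2 replicate 3 or 3A10t replicate 3, and 14 when only the 6 libraries were fitted. Cd69 and Zfp36 were called in 10 and 11 of the 24, and Cd5 in 6, but not with the block (adjusted p = 0.067, limma). The block added Dgkz, Nab1, Hdac7, Nfatc2 and Ppp3cb.

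**Figure D5:**
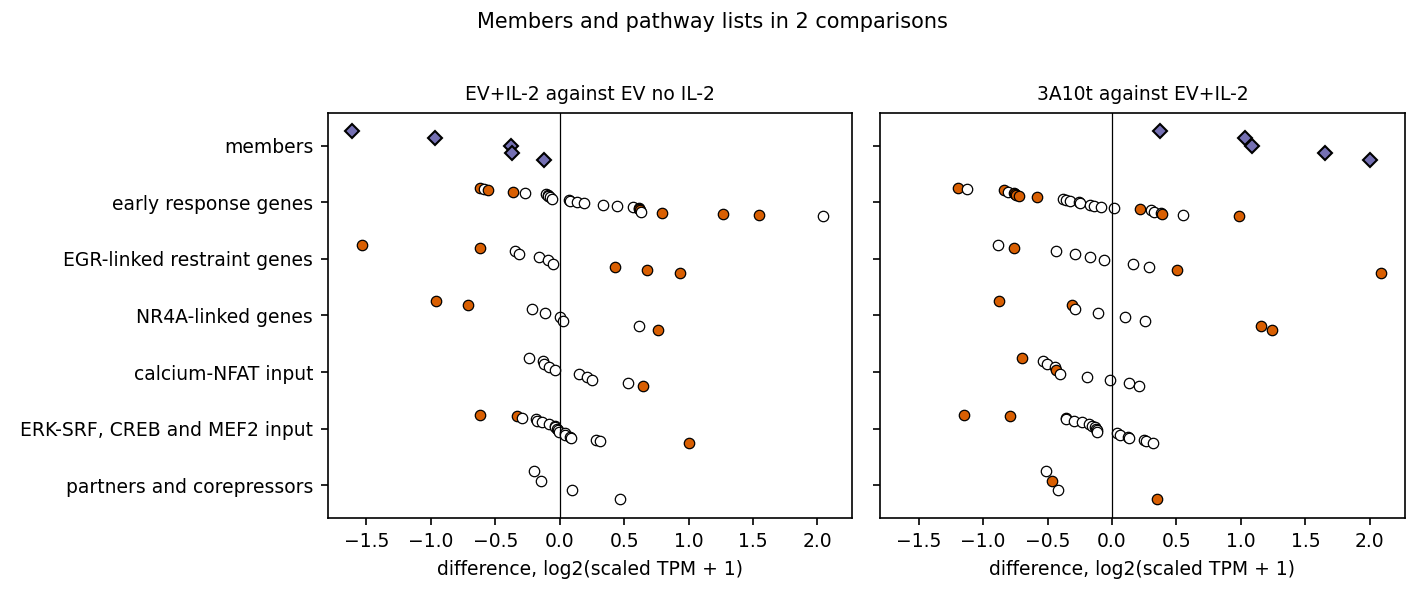
Differences in log2(scaled TPM + 1) of the tested genes of each list, 1 point per gene, for EV+IL-2 against EV no IL-2 and for 3A10t against EV+IL-2. Orange points passed limma's adjusted p under 0.05, and diamonds are the NR4A and EGR genes, which carry no test; they lie from −1.61 to −0.12 in the first comparison and from 0.37 to 2.00 in the second.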

How the data were processed

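The deposited values are TPM for 55228 gene symbols, 1 column per library. Per the labels, the authors made these TPM with RSEM 1.3.0, after Cutadapt 1.18 for trimming and STAR 2.5.3 for alignment to GRCm38. TPM are scaled for transcript length and library total and keep no depth, so no count test was run and no counting error is given. The kit primes cDNA with oligo-dT and no strand is stated, though no annotated gene overlaps any of the 6 genes. All 12 columns were used, and samples were grouped by their labels.

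TPM were divided by median-of-ratios factors from the 13685 genes that averaged 1 TPM or more and were never at 0. limma 3.58.1 in R 4.3.3 (lmFit, eBayes with a trend) was fitted to log2(scaled TPM + 1) of 15043 genes with 1 mean per group. P-values were adjusted by the method of Benjamini and Hochberg over all genes tested and called under 0.05. They measure the spread between cultures of 1 pool of cells. The code was tested on simulated data. The 6 genes and the gene lists were chosen with earlier results of these data known. Listed genes were named if called, up to 5 per list, direction and comparison, with the partners and corepressors in full and the nearest genes of each NR4A or EGR gene whose group means span at least 1.

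The labels give the shared sort behind a replicate number. Deviations of same-numbered libraries from their group means correlated by 0.041 on average over 18 pairs (−0.11 to 0.15, 3 pairs over 0.1), against −0.020 over 36 other pairs, and a fit blocked on the number is printed beside results whose calls it altered. Positions are from GENCODE M21 and promoters from RefSeq, both on GRCm38. Other settings tried were pseudocounts (0.1, 5), filters (none, or 5 TPM on average), unscaled TPM, quantile normalization, a fit of just the 6 libraries of a comparison, the replicate block, eBayes with no trend, a lowess correction (span 0.3) for transcript length with and without the block, and leaving out each library. Factors from genes averaging 20 TPM or more were added after the data were seen.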

Additional observations from a re-analysis of the deposited data

How the results depend on the processing

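The 5 comparisons of the NR4A and EGR genes and of the listed genes were repeated under 24 other settings, or 22 for a single gene's difference. The sign turned under at least 1 of them for 6 of the 30 single-gene differences. These were Egr1, Nr4a2 and Nr4a3 between the tethers, Nr4a2 and Egr3 between the EV groups, and Egr3 between 3A10t and EV+IL-2 (0.40), which was −0.098 with quantile normalization. Of the NR4A and EGR genes, the number fully outside EV no IL-2 in 3A10t (3) was 1 with TPM as deposited, 5 with the length correction and 3 to 5 with a library left out. Between 3A10t and 1G12t (3) it was 1 with quantile normalization and 3 to 5 with a library left out. No share of all genes was taken under these settings, so nothing is read from these numbers. The number of listed genes called between 3A10t and 1G12t (5) was 0 without a filter, 12 with a mean TPM of at least 5, 14 with TPM as deposited, 0 with only the 6 libraries, 10 with the replicate block, 1 with no trend, 2 with the length correction, 2 with that and the block, 10 with factors from genes averaging 20 TPM or more, and 0 to 21 with a library left out. In 3A10t against EV no IL-2 (1) it was 0 without a filter, 2 with a mean TPM of at least 5, 3 with TPM as deposited, 0 with only the 6 libraries, 3 with the replicate block, 0 with no trend and 0 to 14 with a library left out. In 3A10t against EV+IL-2 (24) it was 14 with only the 6 libraries and 10 to 30 with a library left out. The count of calls in EV+IL-2 against EV no IL-2 stayed within 1.5 times its 21 under all alternatives. Under the replicate block the calls of Ier2 and Zfp36 in that comparison were lost, as were Crtc2 in 3A10t against EV no IL-2 and Cd5 in 3A10t against EV+IL-2, and the calls it added are named beside their results. The causes were not tested. Pseudocounts of 0.1 and 5 moved 12 of the 30 single-gene differences by more than the spread between replicates, as low TPM weigh more or less on the log scale. The depth of the libraries is unknown, so genes near 1 TPM such as Nr4a2, Nr4a3 and Egr3 are limited by a counting error that cannot be given.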
